A study of Mus musculus with 6 samples.

Results

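The genes described are 9 genes of wound-bed matrix and cell migration, each found as a row of the deposited gene count table by its symbol: the matrix ligands Tnc and Fn1, the integrin subunits Itga5, Itgav and Itgb6, the hyaluronan receptor Cd44, the hyaluronan synthases Has2 and Has3, and the intermediate filament gene Vim. They are 9 of 35673 genes in the table, and all 9 passed the low-count filter that left 18804 genes for testing. RNA was sequenced from corneal tissue of male C57BL/6J mice aged 6 to 8 weeks, in 3 libraries titled Cationorm and 3 titled Control. Cationorm drops are a cationic emulsion of oil in water. Per the labels, dry eye was induced by contact lenses together with chemical irritation: 0.1% benzalkonium chloride, a preservative toxic to the ocular surface, was combined with lens wear for 6 h a day, after which drops of 5 µL were given for 14 days. Every library, Control included, carries the tag of this model, so whether Control corneas were left untreated or belonged to the model is not clear from the labels. They also do not say whether replicates came from separate animals or from pooled corneas, and all p-values therefore reflect library-to-library spread that may be technical.

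When a corneal epithelial wound is closed, cells at its edge migrate over a provisional matrix that contains fibronectin, made from Fn1, and tenascin-C, made from Tnc. Integrins are receptors of an α and a β chain that grip this matrix. The α5 chain (Itga5) pairs with β1 to bind fibronectin, and the αv chain (Itgav) pairs with several β chains. Among them is β6 (Itgb6), an epithelial chain whose complex with αv binds fibronectin and activates latent TGF-β. CD44 is the main cell surface receptor of hyaluronan, the long sugar polymer that Has2 and Has3 make at the plasma membrane, and vimentin is the intermediate filament of keratocytes, fibroblasts, endothelium, leukocytes and lens cells.

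The short peptide arginine-glycine-aspartate, through which fibronectin is held by α5β1 and αv integrins, ties the ligand to the receptors of this group, and the reading frame that encodes it is shown for that reason. The longest coding transcript of Fn1 in GENCODE M21, Fn1-201 on chromosome 1, has 2477 codons and encodes the peptide at 2 places, whereas the longest coding transcript of mouse Tnc, Tnc-203 on chromosome 4, encodes it at 0 places in 2110 codons. The longest coding transcript of the receptor chain Itgb6 also holds 2 in-frame runs of these codons, which are not shown. The presence of these codons does not by itself show that an integrin binds there. Binding at either place of Fn1 was not tested. Both stretches of Fn1 are given from 5′ to 3′ with the codons of the peptide in capitals and 30 bases to each side, and codons are numbered from 1 at the start codon.
Fn1 at codon 1614: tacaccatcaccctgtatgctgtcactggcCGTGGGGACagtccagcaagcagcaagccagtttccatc
Fn1 at codon 2181: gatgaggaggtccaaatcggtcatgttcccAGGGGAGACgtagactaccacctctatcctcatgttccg
The counts are per gene, so they do not separate the spliced forms of Fn1, Tnc or Cd44.

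Depth ran from 32486043 counts in Cationorm 1 to 39193311 in Control 1, and levels are given as CPM, the count scaled by TMM-adjusted library size. A gene with no counts could still lie at 0.0952 CPM or below in the library with the highest such limit (3 counts, counting error only). The tissue label matched its defining marker: the corneal keratin Krt12 was at 8515, 9075 and 8593 CPM in Cationorm 1 to 3 and at 8838, 8787 and 8350 CPM in Control 1 to 3. Marker lists of other eye tissues differed between libraries. The summed level of 8 iris and pigment genes was 1172 to 1483 CPM in Cationorm and 424 to 1054 CPM in Control, and that of 5 smooth muscle genes was at least 262 CPM in every Cationorm library and at most 226 CPM in every Control library. Lens markers ran from 1651 to 5826 CPM in Cationorm and from 74.4 CPM in Control 1 to 2994 CPM in Control 2, and retina markers from 1841 to 5872 CPM in Cationorm and from 4765 to 7129.8 CPM in Control. Every marker of these 4 lists that the table holds was above 0 in every library. Skeletal muscle markers ran from 54.5 CPM in Cationorm 1 to 1479.7 CPM in Cationorm 2, and from 79.2 to 886 CPM in Control. Des, 1 of the 5 smooth muscle genes, was also highest in Cationorm 2 (89.8 CPM) and overlapped between the groups.

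In the comparison of Cationorm with Control, none of the 9 genes passed the test. After Benjamini-Hochberg adjustment over all genes tested, edgeR's quasi-likelihood test called 0 of the 9, against a background of 0% (0 of 18804 genes called). Fn1 and Vim had an unadjusted p under 0.05, which 8.73% of all genes tested had, and DESeq2 and limma-voom called 0 of the 9. Levels were higher in Cationorm for 8 of the 9 genes, against 51.2% of all genes, and the median log2 fold change was 0.19, against 0.0055 over all genes tested. Without Control 1 the number of higher genes was 5 of 9, as Tnc, Itgb6 and Cd44 joined Itgav below 0, and without Cationorm 1 it was 6 of 9. The 3 libraries of each group did not overlap for Fn1, Has3 and Vim, all 3 higher in Cationorm. Groups did not overlap in that direction for 8.73% of all genes tested and in either direction for 14.8%. The 9 genes were chosen with earlier results of these data known, so these shares are descriptive only.

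Per kilobase of the longest coding transcript, the receptor of hyaluronan was far more abundant than the enzymes that make the polymer. In Cationorm, Cd44 stood at 98.8 CPM per kb, Vim at 78.0, Fn1 at 51.2, Itgav at 14.0, Itgb6 at 4.20, Itga5 at 2.15, Tnc at 1.98, Has2 at 0.919 and Has3 at 0.351. In Control the levels were 97.7 CPM per kb for Cd44, 58.3 for Vim, 44.8 for Fn1, 14.7 for Itgav, 3.93 for Itgb6, 1.72 for Itga5, 1.78 for Tnc, 0.617 for Has2 and 0.288 for Has3. Itga5 and Tnc, the neighbours that changed places between the groups, had overlapping values within each group. With all annotated exons as the length, Fn1 came above Vim in both groups (36.4 against 36.1 CPM per kb in Cationorm and 31.9 against 27.0 in Control), so the order of these genes depends on the gene model.

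**Figure D1:**
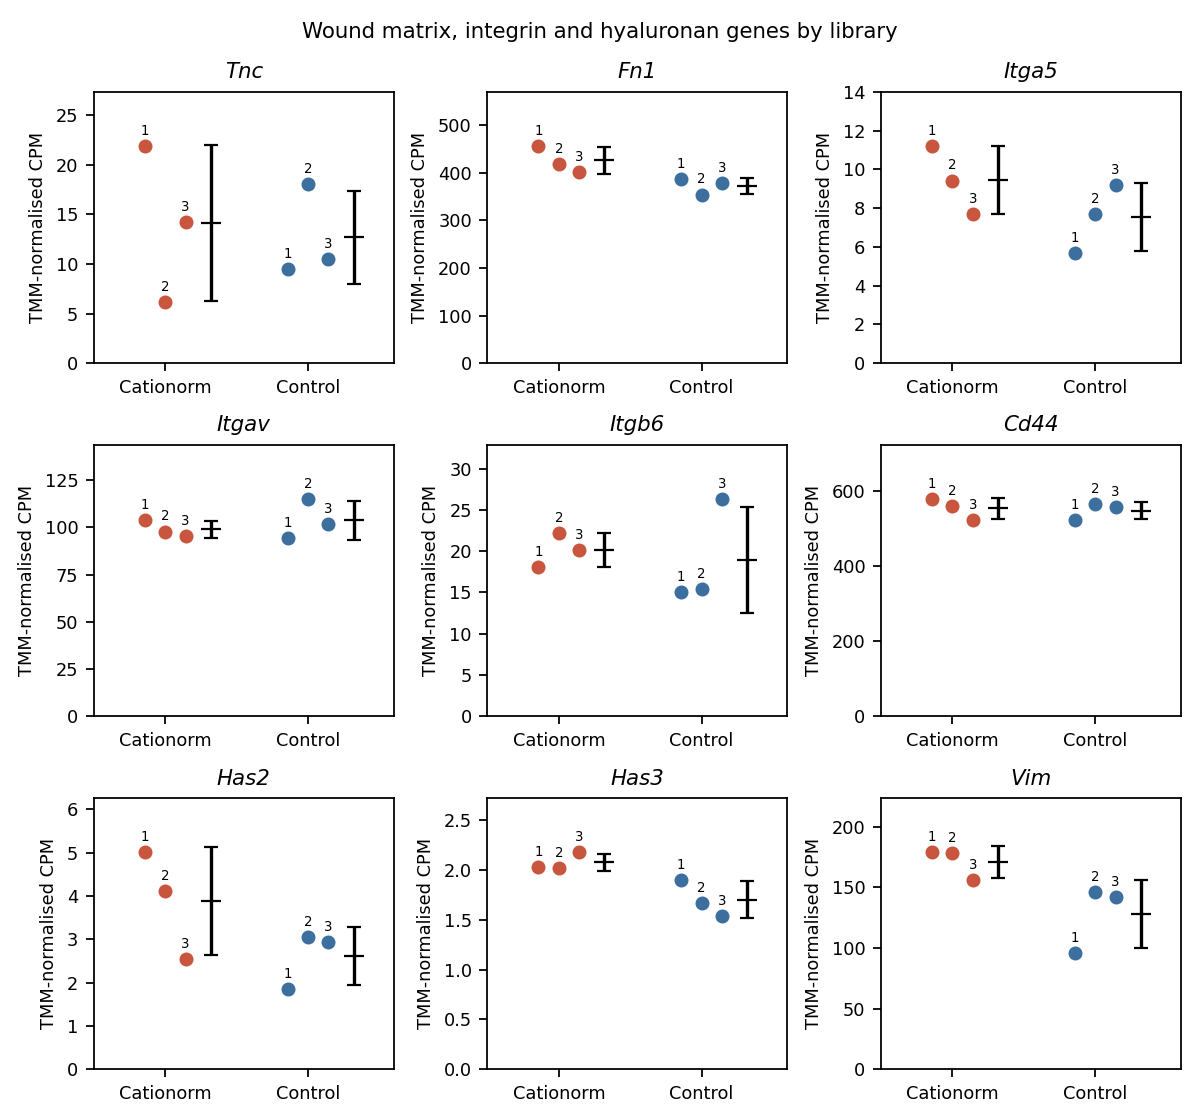
TMM-normalised CPM (vertical axes, from 0) of the 9 genes in the 3 Cationorm libraries (red, left) and the 3 Control libraries (blue, right); small digits name the replicate, and black marks give the mean and SD of each group. The groups separate for Fn1, Has3 and Vim, while Tnc spreads from 6.16 to 21.9 CPM within Cationorm.

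Fn1, the fibronectin gene, was the member with the smallest p in the edgeR fit of all 6 libraries after the low-count filter. In DESeq2 the smallest unadjusted p was that of Vim (0.00684, against 0.0154 for Fn1). The level of Fn1 was 456, 419 and 402 CPM in Cationorm 1 to 3, against 386, 354 and 378 CPM in Control 1 to 3. Every Cationorm library lay above every Control library, with the nearest pair being Cationorm 3 and Control 1. The group means were 426 ± 27.4 CPM in Cationorm and 372 ± 16.7 CPM in Control (SD, n = 3 each). The log2 fold change was 0.19 ± 0.07 (SE, 95% interval 0.03 to 0.36), which is 1.14-fold, and it did not pass edgeR's test (unadjusted p = 0.0272, adjusted p = 0.55). With DESeq2 the adjusted p was 0.336. Leaving out each library in turn kept the log2 fold change between 0.14 and 0.23.

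Tnc, a matrix protein that is low in most resting adult tissues, varied more between libraries than any other of the 9 genes. It was at 21.9, 6.16 and 14.2 CPM in Cationorm 1 to 3 and at 9.53, 18.1 and 10.5 CPM in Control 1 to 3. The highest and the lowest of the 6 libraries were both Cationorm, 3.55-fold apart, and the groups overlapped throughout. Its log2 fold change was 0.15 ± 0.45 (SE, edgeR adjusted p = 0.916), and the 95% interval of -0.91 to 1.21 allows anything between 0.534-fold and 2.31-fold. Without Cationorm 1 the log2 fold change was -0.31, and without Cationorm 2 it was 0.49. The genes whose profile over the 6 libraries was most like that of Tnc, among 11636 genes of at least 5 CPM, were Ifit1, an interferon-induced RNA-binding protein, Rnf213, a large E3 ubiquitin ligase, and Mmp3, the matrix protease stromelysin 1, with root mean square differences in centred log2 CPM of 0.23, 0.25 and 0.26. Ifit1 was at 254, 85.0 and 179.5 CPM in Cationorm 1 to 3 and at 115, 320.3 and 173 CPM in Control 1 to 3, so that it shared with Tnc a low Cationorm 2 and a high Control 2. Tnc and Fn1 differed in how steady they were: the log2 ratio of their counts was -4.38, -6.08 and -4.82 in Cationorm 1 to 3 and -5.33, -4.29 and -5.17 in Control 1 to 3. The difference of -0.16 between the groups did not pass a 2-sided exact permutation test (p = 0.9, adjusted over 4 ratios 0.9), and with 3 libraries against 3 no such test can go below 0.1.

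Itgav, the common αv chain, was among the steadiest members. It was at 104, 97.8 and 95.4 CPM in Cationorm 1 to 3 and at 94.5, 115 and 102 CPM in Control 1 to 3. It was the only member with a lower level in Cationorm, by a log2 fold change of -0.06 ± 0.09 (SE, edgeR adjusted p = 0.792), and the 95% interval of -0.27 to 0.14 corresponds to 0.832-fold to 1.10-fold. Itgb6, its epithelial partner, was at 18.1, 22.2 and 20.1 CPM in Cationorm 1 to 3 and at 15.0, 15.4 and 26.3 CPM in Control 1 to 3. Control 3 was above all Cationorm libraries and the other Control libraries below them. The log2 fold change was 0.09 ± 0.22 (SE, edgeR adjusted p = 0.894). It rose to 0.41 without Control 3 (adjusted p = 0.258) and turned negative without Control 1 (-0.048) or without Control 2 (-0.0482).

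Itga5, the fibronectin-specific chain, was at 11.2, 9.42 and 7.71 CPM in Cationorm 1 to 3 and at 5.70, 7.70 and 9.20 CPM in Control 1 to 3. Cationorm 1 and 2 lay above all Control libraries, and Cationorm 3 lay between Control 2 and Control 3. The log2 fold change was 0.32 ± 0.22 (SE, 95% interval -0.19 to 0.84), and edgeR did not call it (adjusted p = 0.605). It was 0.16 without Control 1, the library with the lowest level, and 0.49 without Control 3. Relative to Itgav within each library, the log2 ratio of Itga5 was -3.40 ± 0.21 in Cationorm and -3.80 ± 0.30 in Control (SD, n = 3 each), a difference of 0.40 that did not pass the exact permutation test (p = 0.2, adjusted over 4 ratios 0.8). The same ratio for Itgb6 was -2.30 ± 0.20 in Cationorm and -2.50 ± 0.49 in Control (exact permutation p = 0.6, adjusted 0.8), and the difference ran from 0.0 without Control 2 to 0.48 without Control 3.

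Cd44, which links hyaluronan to the cortical cytoskeleton, was the most abundant of the 9 genes per kilobase and the steadiest. Its level was 579, 561 and 522 CPM in Cationorm 1 to 3 and 522, 566 and 557 CPM in Control 1 to 3, which intermingle. The highest library was 1.11-fold above the lowest. The log2 fold change was 0.02 ± 0.07 (SE, edgeR adjusted p = 0.941), and its 95% interval ran from -0.14 to 0.17, or 0.909-fold to 1.12-fold.

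**Figure D2:**
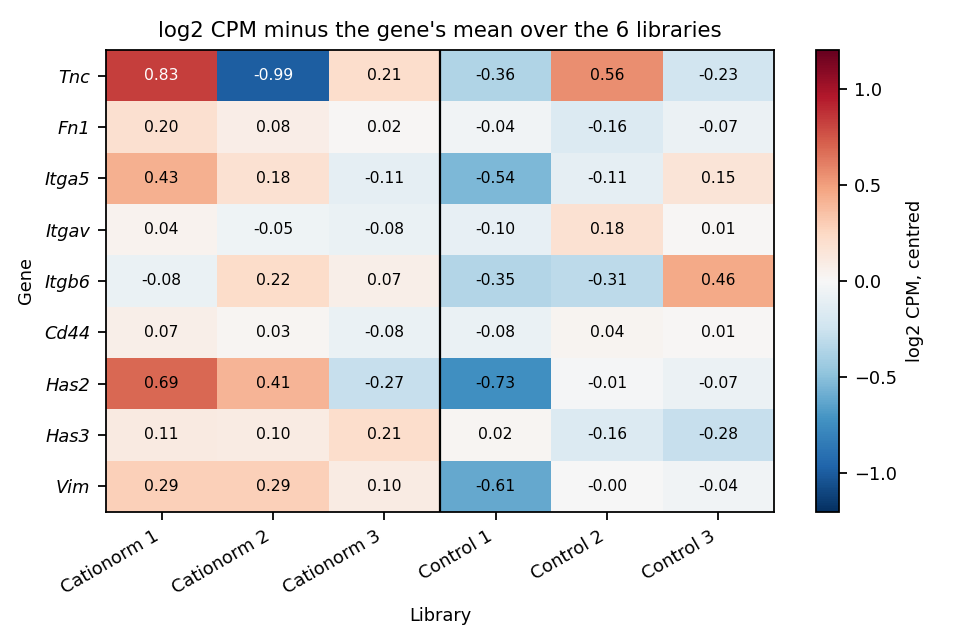
Log2 CPM of each gene (rows) in each library (columns, Cationorm left of the black line) after subtracting the gene's mean over the 6 libraries; red is above and blue below that mean. Control 1 is the lowest library for Has2 (-0.73), Vim (-0.61) and Itga5 (-0.54), while Cd44 stays between -0.08 and 0.07.

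The hyaluronan synthases were the least abundant members, with 74 to 158 counts of Has2 and 54 to 82 counts of Has3 per library. Has2, the enzyme of most mesenchymal hyaluronan, was at 5.01, 4.11 and 2.55 CPM in Cationorm 1 to 3 and at 1.85, 3.06 and 2.93 CPM in Control 1 to 3. Cationorm 1 and 2 were the highest libraries and Control 1 the lowest, but Cationorm 3 was below Control 2 and Control 3, so the groups overlapped. Its log2 fold change of 0.57 ± 0.31 (SE, 95% interval -0.16 to 1.31) was the largest of the 9 and did not pass (edgeR adjusted p = 0.557). It was 0.80 without Cationorm 3, 0.35 without Cationorm 1 and 0.38 without Control 1. Has3, the enzyme of many epithelia, was at 2.03, 2.02 and 2.18 CPM in Cationorm 1 to 3 and at 1.90, 1.67 and 1.54 CPM in Control 1 to 3. The groups did not overlap, but they came close to each other: the exact Poisson interval of the count of Cationorm 2 was 1.59 to 2.52 CPM and that of Control 1 was 1.50 to 2.38 CPM, so counting error alone spans the gap between them. The log2 fold change was 0.28 ± 0.20 (SE, edgeR adjusted p = 0.618). The log2 ratio of Has3 to Has2 was -0.84 ± 0.55 in Cationorm and -0.58 ± 0.54 in Control (SD, n = 3 each; exact permutation p = 0.5, adjusted over 4 ratios 0.8). Has1, the other synthase, had 2 to 16 counts in a library and was removed by the filter on low counts.

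The genes most like Has2 over the 6 libraries, among 11637 of at least 5 CPM, were Mdk, the heparin-binding growth factor midkine, Fbn1, the microfibril protein fibrillin 1, and Trim5, a tripartite motif protein, with root mean square differences in centred log2 CPM of 0.17, 0.19 and 0.19. Fbn1 was at 42.8, 38.7 and 32.7 CPM in Cationorm 1 to 3 and at 19.6, 30.1 and 33.7 CPM in Control 1 to 3. Like Has2, it was lowest in Control 1 and highest in Cationorm 1. Counts of 5 of the 9 genes are uncertain in part, because 182 exonic bases of Has2 overlap the antisense gene Has2os and 352 of Has3 overlap Chtf8 in the annotation of GRCm38, as do 634 of Itgav, 292 of Fn1 and 176 of Tnc with other genes on the opposite strand, and no source used here gives the strand setting. Has2os had 30 to 53 counts per library and was at 1.11 ± 0.274 CPM in Cationorm and 1.35 ± 0.150 CPM in Control (SD, n = 3 each). Chtf8 had 11 to 24 counts per library, and whether reads shared with it were left out of the Has3 count was not tested.

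Vim, the vimentin gene, was at 179, 178 and 156 CPM in Cationorm 1 to 3, against 95.5, 146 and 142 CPM in Control 1 to 3. All Cationorm libraries lay above all Control libraries, and Control 1 stood well below the others. The means were 171 ± 13.0 CPM in Cationorm and 128 ± 28.1 CPM in Control (SD, n = 3 each). The log2 fold change was 0.42 ± 0.16 (SE, 95% interval 0.04 to 0.80), or 1.34-fold, with an unadjusted p of 0.0341 and an adjusted p of 0.55 in edgeR, and with an adjusted p of 0.266 in DESeq2. Without Control 1 it was 0.25. In a bulk sample of cornea, more cells that express vimentin and more vimentin RNA per cell cannot be told apart.

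Markers of cells that carry vimentin moved with it in part. All 8 iris and pigment markers and all 5 smooth muscle markers had higher means in Cationorm, and, like Vim, both summed levels separated the groups. Both sums were lowest in Control 2 (424 and 104 CPM). Vim in Control 2 (146 CPM) was above Control 1 and Control 3 and below every Cationorm library. All 8 lens markers in the table were also higher, and their sum was lowest in Control 1 (74.4 CPM), the library with the lowest Vim. In Cationorm 1, which had the highest Vim, the lens sum of 1651 CPM was below those of Control 2 (2994 CPM) and Control 3 (2559 CPM). The 10 macrophage markers, 4 of them higher in Cationorm, summed to 116 to 124 CPM in Cationorm and were again lowest in Control 1, at 87.3 CPM, with Control 2 and 3 at 158 and 128 CPM. Of the keratocyte and stroma markers, 3 of 11 were higher in Cationorm. Their sum was 4307, 2999 and 2919 CPM in Cationorm 1 to 3 and 3349, 3427 and 3436 CPM in Control 1 to 3. Like Vim, this sum was highest in Cationorm 1, but it overlapped between the groups. Single markers of this list separated the groups in opposite directions, with log2 fold changes of -0.83 for Kera and 1.0 for Ptgds. The 9 vascular and lymphatic endothelial markers, 8 of them higher, summed to 119 to 127 CPM in Cationorm and 82.9 to 134 CPM in Control. None of the markers in these 6 lists was at 0 in a library, and their part in the values of Vim, Fn1, Has2 or any other member was not tested.

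**Figure D3:**
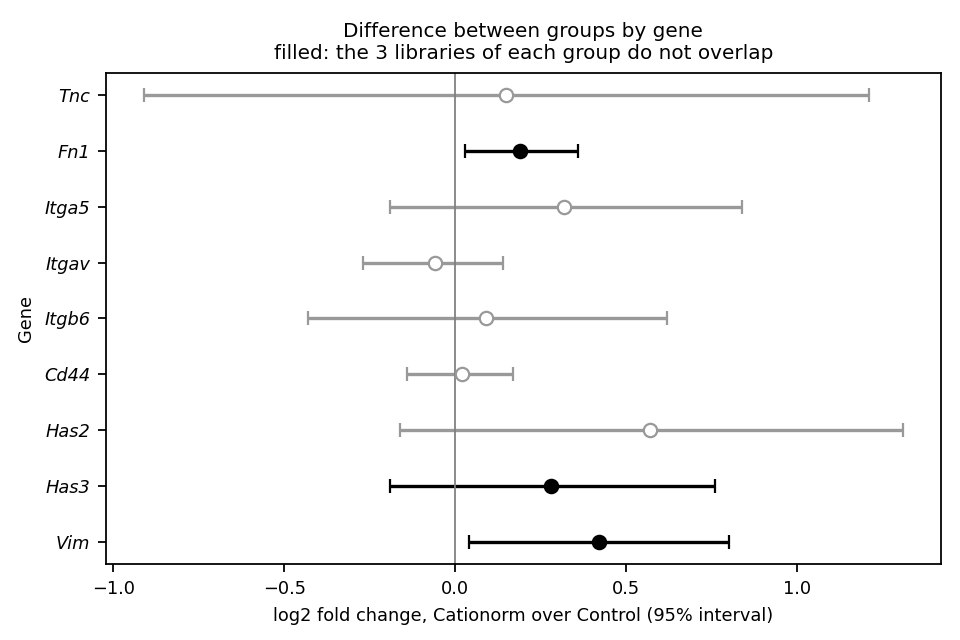
Log2 fold change of Cationorm over Control (horizontal axis) with its 95% interval for each of the 9 genes; filled points mark genes whose libraries do not overlap between the groups. Only the intervals of Fn1 (0.03 to 0.36) and Vim (0.04 to 0.80) leave out 0, before adjustment over all genes.

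Around the 9 genes, 6 lists of 105 further genes describe the same processes, of which 100 were tested. edgeR called 0 of them, 18 (18.0%) had an unadjusted p under 0.05 against 8.73% of all genes, limma-voom called 0, and DESeq2 called 3, all higher in Cationorm: Fbln1 (log2 fold change 0.67, adjusted p = 0.000657), Vcan (1.48, adjusted p = 0.00763) and Flna (0.38, adjusted p = 0.0157). DESeq2 called 0.381% of the 14426 genes it gave an adjusted p. Of the 100 genes, 76 had a higher level in Cationorm, against 51.2% of all genes tested, and 69 of 100 did without Control 1. The iris and pigment and the smooth muscle markers separated the groups in the same direction, and their part in the values of Fbln1, Vcan, Flna and the other genes of the lists was not tested. The lists were chosen with earlier results of these data known, so the shares describe the lists and do not test them.

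The provisional and matricellular matrix list had 14 of 20 genes higher in Cationorm and a median log2 fold change of 0.10. Fbln1, a fibulin that binds fibronectin, was at 222, 215 and 162 CPM in Cationorm 1 to 3, against 112, 123 and 139 CPM in Control 1 to 3. It had a log2 fold change of 0.68 ± 0.14 (SE, edgeR adjusted p = 0.55), with no overlap between the groups. For Tnr, the tenascin of neural matrix, the log2 fold change was 0.64 ± 0.19 (SE). The lowest values in the list were those of Ccn2, a matricellular target of TGF-β, and Vtn, the adhesive protein vitronectin, at -0.66 each, and the groups overlapped for both. Vtn was lowest in Cationorm 1 and 2 (41.3 and 51.2 CPM), as were the summed retina markers (2355 and 1841 CPM). The part of retina in the value of Vtn was not tested.

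Among the other integrin subunits, 19 of 22 tested were higher in Cationorm, with a median of 0.16. Itgb4, the β chain of the hemidesmosome integrin, was at 645, 604 and 616 CPM in Cationorm 1 to 3 and at 534, 562 and 545 CPM in Control 1 to 3, with a log2 fold change of 0.18 ± 0.06 (SE). Itga3, the α chain of a laminin receptor, was at 280.1, 278 and 264 CPM in Cationorm 1 to 3 and at 233, 217 and 258 CPM in Control 1 to 3. Itga4, the α4 chain, was lower, at 2.79, 2.81 and 4.20 CPM in Cationorm and 5.88, 6.12 and 4.27 CPM in Control, a log2 fold change of -0.73 ± 0.24 (SE). The groups did not overlap for these 3 genes, and edgeR called 0 of them (adjusted p = 0.55 each). For Itga4 the groups nearly touched, at 4.20 CPM (158 counts) in Cationorm 3 and 4.27 CPM (150 counts) in Control 3. Whether counting error spans that gap was not tested. Itga4 was lowest in Cationorm 1 and 2, as were the summed retina markers (2355 and 1841 CPM). The part of retina in the value of Itga4 was not tested.

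The hyaluronan list, which holds enzymes that supply or degrade the polymer and proteins that bind it, had 10 of 18 tested genes higher and a median of 0.05, which was -0.10 without Cationorm 2. Vcan, the hyaluronan-binding proteoglycan versican, was at 18.9, 18.2 and 9.95 CPM in Cationorm 1 to 3, against 3.43, 5.14 and 8.26 CPM in Control 1 to 3. Its log2 fold change of 1.48 ± 0.37 (SE, edgeR adjusted p = 0.55) was the largest increase in the 6 lists. The groups did not overlap, and Control 1 was again the lowest library. Hyal1, a lysosomal hyaluronidase, had 0.37 ± 0.17, and Hapln4, a link protein of nervous tissue, had -1.53 ± 0.69, with levels of at most 2.70 CPM. Control 1 had the highest Hapln4 and the highest summed retina markers, and the part of retina in that value was not tested.

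The focal adhesion list had 18 of 21 tested genes higher in Cationorm and a median of 0.21, which was 0.12 without Control 2. In 9 of the 21 the groups did not overlap, all 9 higher in Cationorm, against 8.73% of all genes in that direction, and 8 had an unadjusted p under 0.05 (38.1%), against 8.73% of all genes. This list too was chosen with earlier results of these data known, so these shares do not test it. Flna, the actin crosslinker filamin A, was at 389, 366 and 337 CPM in Cationorm 1 to 3, against 247, 294 and 293 CPM in Control 1 to 3, a log2 fold change of 0.39 ± 0.09 (SE, edgeR adjusted p = 0.55). Tln1, the talin that switches integrins to their active state, differed by 0.26 ± 0.08 (SE) on the log2 scale. Ilk, an adaptor kinase of the same adhesions, had 1 to 3 counts in a library and was not tested. How reads in overlapping genes were counted is not stated, so its count is not read as a level of expression.

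The membrane partners of CD44 had 8 of 9 genes higher and a median of 0.08. Mmp14, a membrane protease that can shed CD44, was at 224, 248 and 225 CPM in Cationorm 1 to 3 and 191, 180.1 and 218 CPM in Control 1 to 3 (log2 fold change 0.24 ± 0.09 SE, edgeR adjusted p = 0.55). Esrp1, an epithelial splicing factor that acts on CD44 transcripts, had 0.20 ± 0.08, and Msn, the linker moesin, had 0.47 ± 0.25. The list of intermediate filaments and mesenchymal transition, of which Des is also a smooth muscle marker, had 7 of 10 tested genes higher, a median of 0.11 that ran from 0.053 without Cationorm 3 to 0.17 without Control 3, and 0 genes with an unadjusted p under 0.05. Snai1 and Snai2, transcription factors of that transition, had opposite signs, at 0.35 ± 0.20 and -0.30 ± 0.15, and the epithelial cadherin Cdh1 had 0.17 ± 0.08 (SE). In this list edgeR, DESeq2 and limma-voom each called 0 genes.

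**Figure D4:**
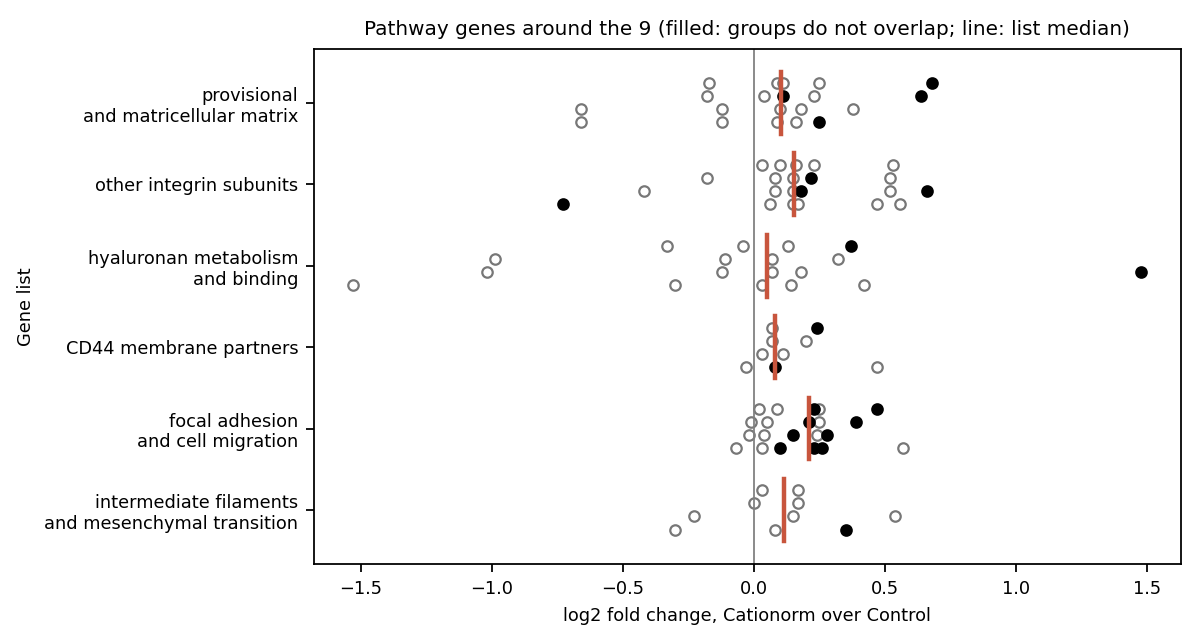
Log2 fold change of Cationorm over Control (horizontal axis) for the 100 tested genes of 6 lists (rows); filled points mark genes whose groups do not overlap and red lines the list medians, which run from 0.05 to 0.21. Vcan lies farthest to the right, at 1.48.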

How the data were processed

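The deposited table holds raw read counts per gene symbol, with 1 column per library, per the file headers. Columns were matched to samples by title. Per the submitters' processing notes, DESeq2 and the builds GRCm39 and mm39 were used, in roles that are not stated. The aligner, counter, annotation and strand setting: not given in the sources used here. Counts were filtered with filterByExpr and normalised by TMM (factors 0.9708 to 1.021), and the groups were compared by edgeR 4.0.16 (R 4.3.3) with glmQLFit and glmQLFTest, without covariates, with Benjamini-Hochberg adjustment over 18804 genes at 0.05. Standard errors come from the fold change and the F statistic. Alternatives used limma 3.58.1 and DESeq2 1.42.0. The fit was also run on simulated counts with known changes, and the share recovered is not reported here. Those counts were drawn for each gene on its own, so they lack the tissue differences that many genes share within a library.

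Totals ran from 32486043 to 39193311 counts. No replicates agreed within sampling noise (lowest chi-square divided by its degrees of freedom 30.5). Ratios used 1 added count. Transcript lengths, overlaps and sequences are from GENCODE M21 (GRCm38), an older build, so no coordinates are given. The members and lists were chosen with earlier results of these data known. Named from each list are the 3 tested genes with the smallest p, of which some are not reported here, and any others were chosen after their values were seen. Profiles are compared for the 2 members with the largest SD of log2 CPM, leaving out predicted genes.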

Additional observations from a re-analysis of the deposited data

How the results depend on the processing

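None of the 9 genes was called under any of 13 alternatives, with adjusted p between 0.215 and 0.998 over 117 values, of which 110 kept the direction and 7 reversed. The 7 came from leaving out a library: the log2 fold change then ran from -0.31 to 0.49 for Tnc, from -0.0482 to 0.41 for Itgb6 and from -0.0175 to 0.0568 for Cd44. Over the same fits it ran from 0.25 to 0.51 for Vim, from 0.35 to 0.80 for Has2 and from 0.16 to 0.49 for Itga5. The group difference of the log2 ratio of Tnc to Fn1 ran from -0.52 to 0.33, that of Has3 to Has2 from -0.57 to 0.04 and that of Itgb6 to Itgav from 0.0 to 0.48. Over all genes, DESeq2 called 55, and leaving out a library gave 0 to 350, with 350 without Cationorm 3, 8 without Control 3 and 1 without Control 2. In the 6 lists, DESeq2 called 3 genes, and leaving out a library gave 0 to 2, both without Cationorm 3 (Fbln1 and Vtn). The causes were not tested. Under the alternatives, 6 values of the list medians moved by more than the spread between libraries: -0.10 for hyaluronan without Cationorm 2, 0.12 for focal adhesion without Control 2, and for intermediate filaments 0.070 without Cationorm 1, 0.053 without Cationorm 3, 0.064 without Control 1 and 0.17 without Control 3. The hyaluronan median was also -0.0096 with no filter, against 0.049. Same-numbered libraries of the groups did not deviate together (r of -0.299 to -0.152 over genes, against -0.299 to 0.338 over all pairs). Deviations within a group of 3 sum to 0, which ties these r values to each other, so the check cannot exclude a pairing. With the replicate number as a block, 0 genes were called and the log2 fold change was 0.19 for Fn1 and 0.44 for Vim. With the depth at hand, counting error limits Has3.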
